A study of Mus musculus with 4 samples.

Results

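Retrotransposons are mobile DNA elements that copy themselves through RNA, and the male germ line holds them in check through DNA methylation and through small piRNAs, which guide the cleavage of element RNA and, for some elements, methylation. When a copy is not silenced, RNA that starts in it can run on into a neighbouring gene, or the element can serve as an alternative start for that gene. The study linked 39 RefSeq genes to a retrotransposon copy activated in Pld6 or Dnmt3l knockout (KO) spermatocytes, and the 8 described here are Tecrl, 2310043L19Rik, Afm, Slc15a2, Caps2, Cdh19, Alox5 and Abcb1a. They are 8 of the 23980 genes in the deposited table. The genes were chosen by expression values: the study made its links on raised RNA in KO spermatocytes of another strain background, and the list of 8 was drawn up with the FPKM of the present libraries in view. The levels below are therefore descriptions of the list. Neither element reads nor the parental origin of the reads were analysed here, so the files show the RNA of these genes and not what starts it.

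PolyA(+) RNA was sequenced from leptotene/zygotene (L/Z) spermatocytes, germ cells in the first steps of meiosis, which were isolated by flow sorting from mice 3 to 4 weeks old. All animals were F1 hybrids of C57BL/6J and MSM/Ms, bred by crossing heterozygotes several times to MSM/Ms and then to heterozygotes of the C57BL/6J background, and the hybrids were made because some of the linked copies are lacking in MSM/Ms. Of the 4 libraries, 1 each was made from Pld6 wild type (WT), Pld6 KO, Dnmt3L heterozygous and Dnmt3L KO cells. Pld6 encodes a mitochondrial nuclease needed to make piRNAs, and Dnmt3l encodes a cofactor of the enzymes that set methylation in the fetal germ line. The Dnmt3L heterozygote and the Pld6 WT served together as controls, and each KO had 1 library, so no KO value has a replicate check.

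Between 30439943 and 63875934 fragments fell in genes per library. Levels are given as FPKM, the fragments scaled to gene length and library depth, with the fragments behind them. Pld6 RNA was at 17.2 FPKM in the Dnmt3L heterozygote, 19.5 in Pld6 WT, 0.334 in Pld6 KO and 8.55 in Dnmt3L KO. Dnmt3l RNA was at 1.27, 0.980 and 0.432 FPKM in the first 3 of these and at 0 in Dnmt3L KO, so both labels were met. All 15 L/Z spermatocyte markers exceeded 1 FPKM in every library, with a summed FPKM of 2447 in the Dnmt3L heterozygote, 3983 in Pld6 WT, 2328 in Pld6 KO and 1388 in Dnmt3L KO. Of these 15, 13 were lowest in Dnmt3L KO. For 12 markers of pachytene spermatocytes, the next stage, the sum was 1425 and 895 in these controls and 147 and 104 in the KOs, so this list set both KOs apart from both controls. Its part in the levels of the 8 genes was not tested. Markers of other testis cells were also read, and the summed FPKM of 14 Sertoli cell markers ranged from 318 in Pld6 WT and 740 in Pld6 KO to 8469 in the Dnmt3L heterozygote and 11144 in Dnmt3L KO. For 12 spermatid markers this sum was 13.3 in Pld6 KO, 28.8 in Dnmt3L KO and 168 in Pld6 WT against 7035 in the Dnmt3L heterozygote. For 9 Leydig cell markers it was 82.9 in Pld6 WT, 290 in Pld6 KO, 446 in Dnmt3L KO and 463 in the heterozygote. For 9 peritubular cell markers it was 233, 1065, 778 and 1303 in that order. Pld6 KO thus also differed from Pld6 WT in markers of somatic cells. In bulk samples, fewer cells of a type and less RNA per cell cannot be told apart.

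The 8 genes lie on 5 chromosomes, and 7 of them encode proteins. In the RefSeq annotation of GRCm38.p6, which has the coordinates of mm10, Tecrl is at chr5:83278122-83355195 on the minus strand, Afm at chr5:90518949-90553544 on the plus strand and Abcb1a at chr5:8567091-8748575 on the plus strand. Cdh19 is at chr1:110888002-110977601 and the long noncoding RNA gene 2310043L19Rik at chr1:177641542-177642943, both on the minus strand. Slc15a2 is at chr16:36750161-36785158 and Alox5 at chr6:116410071-116461178, both on the minus strand, and Caps2 is at chr10:112163349-112216561 on the plus strand. By the study's links, an L1 copy lies upstream of Tecrl (L1Md_Gf) and Alox5 (L1Md_T), both in sense, and within Afm, Caps2 and Abcb1a (L1Md_T), all antisense to the gene. An IAPEZ copy lies in sense within Slc15a2 and Cdh19, and a MERVK copy upstream of 2310043L19Rik in sense. Afm, Caps2 and Alox5 stand in the study's lists for both KOs and the other 5 genes in its Dnmt3l KO list, which does not say that their RNA was raised in that KO alone.

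The annotated promoters of most of these genes were poor in the CG dinucleotides that carry DNA methylation. RefSeq promoter windows, from 250 bases before to 50 after the annotated start, were at hand for 7 of the 8 genes, all but Cdh19. They held between 1 (Afm, 2310043L19Rik) and 7 (Alox5) CG, with 2 in Abcb1a, 3 in Tecrl and 5 each in Slc15a2 and Caps2. At most 5 CG were found in 6 of these 7 windows and in 31.6% of all 16745 promoter windows, whose median was 14. Of the 18 windows of the other linked genes, 44.4% held at most 5 CG. The Abcb1a window is set at the outermost RefSeq start, which lies 93.0 kb before the GENCODE transcript with the most exons, so it may not be the start used in these cells. The same holds for the Caps2 window (chr10:112165426-112165725), which lies inside the RefSeq span of the gene. The GENCODE transcript of Caps2 with the most exons starts 0.272 kb from the start of that span. Printed here are the windows of the 3 genes with a window that had the fewest fragments in the controls (2310043L19Rik, Afm, Tecrl) and of Alox5, which had the most CG. Each CG is in capitals and the sequence reads 5′ to 3′ along the gene.

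Tecrl, chr5:83355146-83355445, minus strand: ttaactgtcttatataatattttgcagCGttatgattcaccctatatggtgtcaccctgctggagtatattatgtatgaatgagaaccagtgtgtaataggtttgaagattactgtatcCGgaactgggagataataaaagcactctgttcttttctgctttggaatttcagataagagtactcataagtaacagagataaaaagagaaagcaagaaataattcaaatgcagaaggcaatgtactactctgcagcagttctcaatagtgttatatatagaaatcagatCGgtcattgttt
2310043L19Rik, chr1:177642894-177643193, minus strand: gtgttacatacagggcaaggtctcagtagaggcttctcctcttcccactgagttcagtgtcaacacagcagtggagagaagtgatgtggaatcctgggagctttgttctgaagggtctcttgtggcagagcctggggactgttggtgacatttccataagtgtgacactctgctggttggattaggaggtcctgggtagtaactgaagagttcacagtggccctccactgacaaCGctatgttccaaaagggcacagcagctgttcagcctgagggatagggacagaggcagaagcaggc
Afm, chr5:90518699-90518998, plus strand: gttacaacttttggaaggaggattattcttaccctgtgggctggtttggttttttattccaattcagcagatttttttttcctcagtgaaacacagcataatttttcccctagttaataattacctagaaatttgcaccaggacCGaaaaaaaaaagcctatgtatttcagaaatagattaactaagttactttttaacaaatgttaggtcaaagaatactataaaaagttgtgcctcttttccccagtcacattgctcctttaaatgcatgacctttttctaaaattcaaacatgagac
Alox5, chr6:116461129-116461428, minus strand: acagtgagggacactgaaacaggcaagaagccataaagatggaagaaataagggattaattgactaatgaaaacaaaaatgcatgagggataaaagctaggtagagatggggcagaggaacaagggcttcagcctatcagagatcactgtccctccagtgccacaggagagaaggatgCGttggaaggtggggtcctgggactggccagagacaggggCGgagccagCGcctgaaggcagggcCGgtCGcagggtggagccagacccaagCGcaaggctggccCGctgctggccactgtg

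The first 3 of these windows thus have at most 3 CG across 300 bases, whereas that of Alox5 has 7. The letters TATAAA were searched on both strands and occurred in the windows of Afm and Caps2, as in 12.9% of all windows. In the Afm window they lie inside the run actataaaaagt.

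**Figure D1:**
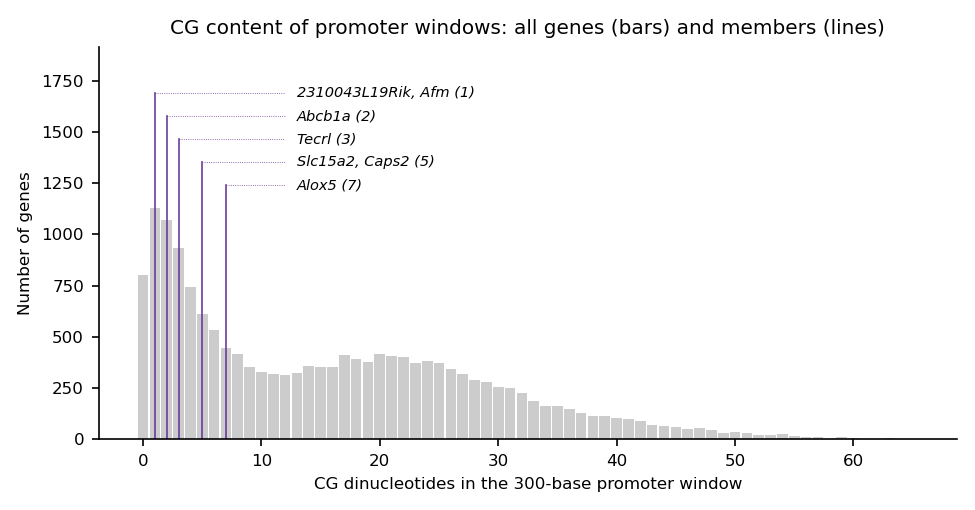
Number of CG dinucleotides (x axis) in the 300-base promoter windows of 16745 genes (bars, y axis, number of genes), with lines at the counts of the 7 members that have a window. All 7 lie at 7 CG or fewer, below the median of 14.

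In most of the 8 genes, RNA was low in both controls and higher in both KOs. FPKM lay above both controls for 7 of the 8 in Pld6 KO (26.4% of all genes) and for 7 of the 8 in Dnmt3L KO (29.1% of all genes). The exceptions were Caps2 in Pld6 KO and Abcb1a in Dnmt3L KO. In 6 of the 8, both KOs were above both controls (11.5% of all genes), namely Tecrl, 2310043L19Rik, Afm, Slc15a2, Cdh19 and Alox5. For Alox5 the excess in Dnmt3L KO was small, at 0.554 FPKM against 0.440 in the heterozygote and 0.477 in Pld6 WT. By a stricter rule, FPKM + 1 more than 2-fold beyond both controls, 2310043L19Rik and Abcb1a were higher in Pld6 KO and none was lower, where 1.04% of all genes were higher and 5.41% lower. By that rule 0 of the 8 were higher or lower in Dnmt3L KO, where 2.14% of all genes were higher and 5.78% lower. The median log2 change of FPKM + 1 relative to the control mean was 0.75 for Pld6 KO, 0.50 for Dnmt3L KO and, over all genes, 0 for each. Both KOs were set against the same controls. The added 1 understates the change of such low genes, and only Abcb1a reached 2 FPKM in any library. With 0.1 added in place of 1, Pld6 KO had 6 of the 8 higher and 0 lower (4.12% and 9.58% of all genes), and Dnmt3L KO had 4 higher and 1 lower (5.14% and 9.84%). Against Pld6 WT alone, Tecrl passed the 2-fold rule in both KOs.

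**Figure D2:**
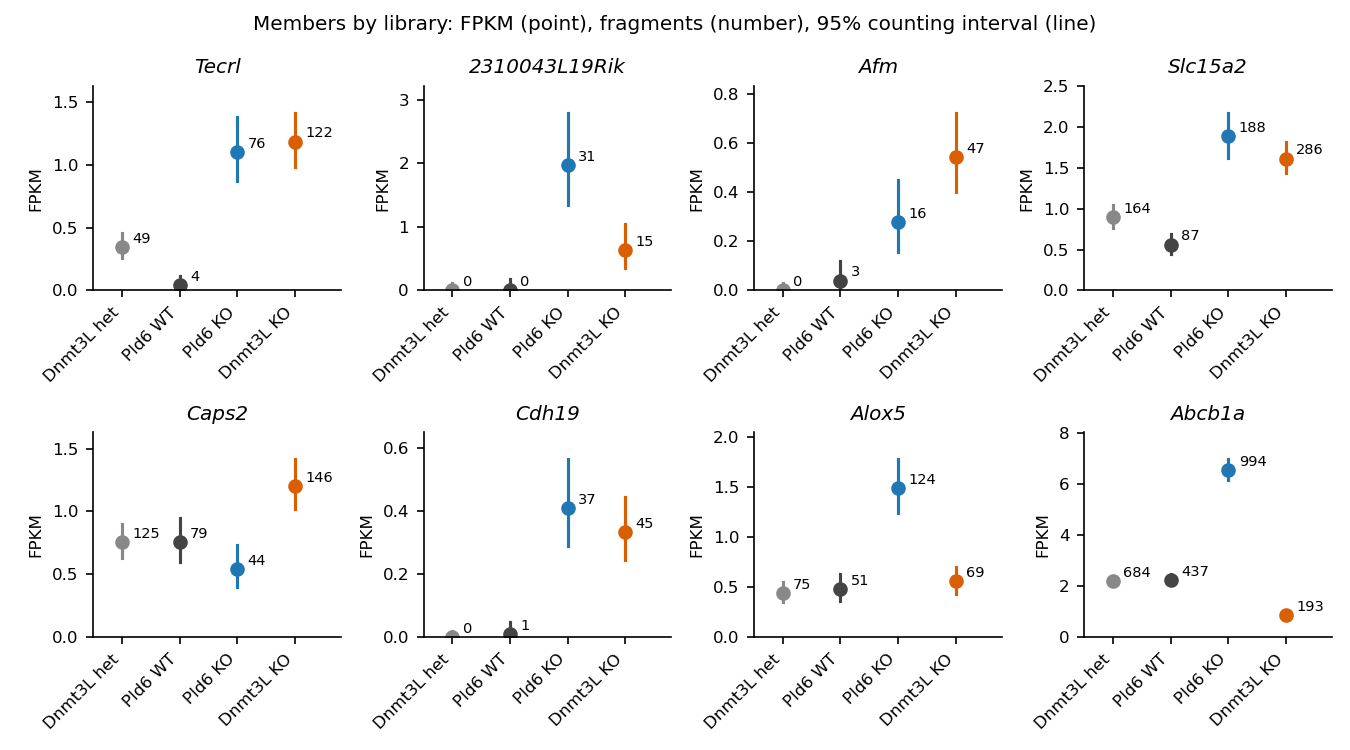
FPKM of each of the 8 genes (y axis, linear, from 0) in the 4 libraries (x axis). Points are the FPKM of the single library, numbers beside them are its fragments, and vertical lines are 95% Poisson intervals that cover counting error only. 2310043L19Rik, Afm and Cdh19 sit at 0 to 3 fragments in the controls.

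2310043L19Rik, Afm and Cdh19 had next to no RNA in the controls, at 3 fragments or fewer in each, a state shared by 4816 genes of the table. 2310043L19Rik, a long noncoding RNA, had 0 fragments in each control, 31 in Pld6 KO (1.97 FPKM) and 15 in Dnmt3L KO (0.638 FPKM). Both KOs thus stood clear of both controls, with Pld6 KO the higher. In its libraries of the other strain background the study described the reverse order for this gene, a lesser effect in Pld6 KO. What lies behind the difference was not tested. Against a floor of 3 fragments in the own-line control, the excess of 2310043L19Rik was at least 13.3-fold for Pld6 KO and at least 6.85-fold for Dnmt3L KO. Between the KOs its depth-scaled fragments were 3.09-fold higher in Pld6 KO, with an exact 95% counting interval of 1.62 to 6.16. Intervals of this kind compare 2 libraries, not 2 genotypes.

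Cdh19 encodes a cadherin, a calcium-dependent adhesion protein found in peripheral glia. It had 0 fragments in the Dnmt3L heterozygote, 1 in Pld6 WT (0.00861 FPKM), 37 in Pld6 KO (0.409 FPKM) and 45 in Dnmt3L KO (0.333 FPKM). The KOs stood apart from the controls and close to each other, with a ratio of Pld6 KO to Dnmt3L KO of 1.23 (0.774 to 1.94). In the Dnmt3L line Cdh19 was at least 20.5-fold higher in the KO. In the Pld6 line the ratio to the single control fragment was 47.5 (8.02 to 1927).

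Afm encodes afamin, a vitamin E-binding plasma protein of the albumin family that the liver secretes. It had 0 fragments in the Dnmt3L heterozygote, 3 in Pld6 WT (0.0405 FPKM), 16 in Pld6 KO (0.277 FPKM) and 47 in Dnmt3L KO (0.545 FPKM). Dnmt3L KO was thus the highest library for Afm, the reverse of 2310043L19Rik. In the Dnmt3L line Afm was at least 21.5-fold higher in the KO, and in the Pld6 line the ratio was 6.85 (1.96 to 36.7). Pld6 KO had 0.509 times (0.269 to 0.914) the depth-scaled fragments of Dnmt3L KO.

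Tecrl encodes a protein of the endoplasmic reticulum related to trans-2-enoyl-CoA reductase and is known from the heart. It had 49 fragments in the Dnmt3L heterozygote (0.348 FPKM), 4 in Pld6 WT (0.0452 FPKM), 76 in Pld6 KO (1.10 FPKM) and 122 in Dnmt3L KO (1.19 FPKM). The KOs were both above both controls and close to each other, with a ratio of Pld6 KO to Dnmt3L KO of 0.931 (0.690 to 1.25), but the controls themselves were far apart. The Dnmt3L heterozygote had 7.68 times the Tecrl of Pld6 WT (2.82 to 29.3), and the ratio to the own-line control was 24.4 (9.15 to 91.9) in Pld6 KO and 3.41 (2.43 to 4.85) in Dnmt3L KO. Against the higher control, the Dnmt3L heterozygote, Tecrl in Pld6 KO was 3.18-fold higher (2.19 to 4.65). Sertoli, Leydig and peritubular cell markers and spermatid markers were also higher in the Dnmt3L heterozygote than in Pld6 WT, by the sums given above. Their part in the Tecrl level was not tested.

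Slc15a2 encodes PEPT2, a proton-coupled carrier of small peptides in kidney, brain and other tissues. It had 164 fragments in the Dnmt3L heterozygote (0.902 FPKM), 87 in Pld6 WT (0.561 FPKM), 188 in Pld6 KO (1.89 FPKM) and 286 in Dnmt3L KO (1.61 FPKM). Both KOs were above both controls, which already held RNA of this gene. In the other strain background the study described RNA from exons past the IAP copy in both KOs, far weaker in Pld6 KO. The whole-gene levels here do not show that order, and exons were not read apart. On depth-scaled fragments Slc15a2 was 2.78-fold higher in Pld6 KO (2.14 to 3.62) and 2.39-fold higher in Dnmt3L KO (1.96 to 2.91) than in the control of its line. On FPKM the same ratios were 3.36 and 1.79, since for this gene alone among the 8 the FPKM given per fragment differed between libraries, by up to 22.0% from its usual value.

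Alox5 encodes arachidonate 5-lipoxygenase, the enzyme that starts leukotriene synthesis in macrophages and other leukocytes. It had 75 fragments in the Dnmt3L heterozygote (0.440 FPKM), 51 in Pld6 WT (0.477 FPKM), 124 in Pld6 KO (1.49 FPKM) and 69 in Dnmt3L KO (0.554 FPKM). Pld6 KO stood apart, and the other libraries were close together. Alox5 was 3.12-fold higher in Pld6 KO than in Pld6 WT (2.24 to 4.42), while the ratio of Dnmt3L KO to its heterozygote was 1.26 (0.895 to 1.77). The summed FPKM of 12 macrophage markers was 86.2 in the Dnmt3L heterozygote, 29.3 in Pld6 WT, 67.8 in Pld6 KO and 158 in Dnmt3L KO, with none at 0 in any library. Dnmt3L KO was thus the highest library for these markers and not for Alox5, whereas both Alox5 and the markers were higher in Pld6 KO than in Pld6 WT, and the part of macrophage RNA in the Alox5 level was not tested.

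Abcb1a encodes a P-glycoprotein, an efflux pump known from the endothelium of the blood-brain and blood-testis barriers. It had 684 fragments in the Dnmt3L heterozygote (2.21 FPKM), 437 in Pld6 WT (2.25 FPKM), 994 in Pld6 KO (6.56 FPKM) and 193 in Dnmt3L KO (0.852 FPKM). The controls were alike, with Pld6 KO above and Dnmt3L KO below both. Abcb1a was 2.92-fold higher in Pld6 KO than in Pld6 WT (2.61 to 3.28) and 2.59-fold lower in Dnmt3L KO than in its heterozygote (2.20 to 3.05). Between the KOs it differed 7.70-fold (6.59 to 9.03).

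Endothelial markers moved with Abcb1a. The summed FPKM of 10 such markers was 47.8 in the Dnmt3L heterozygote, 46.2 in Pld6 WT, 94.5 in Pld6 KO and 27.3 in Dnmt3L KO. As for Abcb1a, Pld6 KO was highest and Dnmt3L KO lowest. All 10 were highest in Pld6 KO and 7 were lowest in Dnmt3L KO, and Slco1c1 was at 0 in Pld6 WT and Dnmt3L KO. The part of endothelial RNA in the Abcb1a level was not tested. Marker lists were also set beside Cdh19 and Afm. The summed FPKM of 8 glial markers was 27.2 in the Dnmt3L heterozygote, 13.9 in Pld6 WT, 17.7 in Pld6 KO and 33.8 in Dnmt3L KO, where Cdh19 was near 0 in both controls, and Fabp7 was at 0 in all but Pld6 WT and Foxd3 at 0 in Pld6 KO. Within each line the glial sum, like Cdh19, was higher in the KO. The summed FPKM of 10 liver secretory genes was 21.8, 17.4, 13.2 and 21.8 in the same order, and in Pld6 KO Alb, Fgb and Ttr were at 0. The part of glial RNA in the Cdh19 level and of liver-type RNA in the Afm level was not tested.

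**Figure D3:**
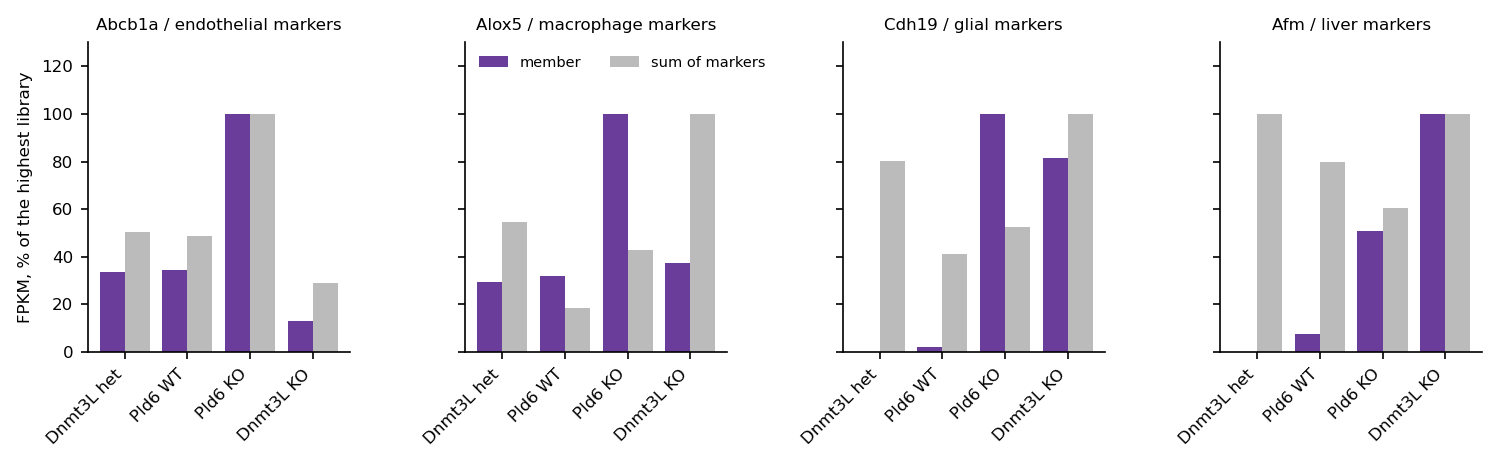
FPKM of 4 genes (purple bars) and the summed FPKM of a marker list of the cell type or organ each is known from (grey bars) in the 4 libraries, each as a percentage of its highest library (y axis, from 0). Abcb1a and the endothelial sum both peak in Pld6 KO and are lowest in Dnmt3L KO, whereas Cdh19 and Afm are at or near 0 in controls in which the glial and liver sums are not.

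Caps2 encodes calcyphosine 2, a calcium-binding protein. It had 125 fragments in the Dnmt3L heterozygote (0.753 FPKM), 79 in Pld6 WT (0.758 FPKM), 44 in Pld6 KO (0.542 FPKM) and 146 in Dnmt3L KO (1.20 FPKM). The controls were alike, Pld6 KO was below them and Dnmt3L KO above. In the Dnmt3L line the KO was 1.60-fold higher (1.25 to 2.05), and in the Pld6 line the ratio of KO to WT was 0.715 (0.483 to 1.05), an interval that includes 1. Pld6 KO had 0.451 times (0.314 to 0.635) the depth-scaled fragments of Dnmt3L KO.

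With each KO set against its own-line control, the log2 change of FPKM + 1 had opposite signs in the 2 lines for Caps2 and Abcb1a and was above 0 in both lines for the other 6. Tecrl had 1.01 in the Pld6 line and 0.70 in the Dnmt3L line, and 2310043L19Rik had 1.57 and 0.71. Afm was the only gene of these 6 with the larger value in the Dnmt3L line, at 0.63 against 0.30.

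**Figure D4:**
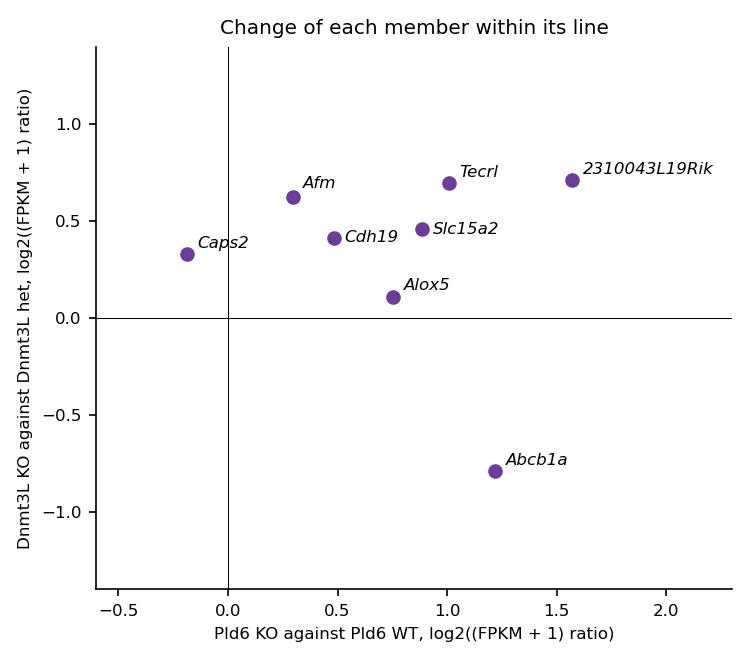
Log2 ratio of FPKM + 1 of Dnmt3L KO to the Dnmt3L heterozygote (y axis) against that of Pld6 KO to Pld6 WT (x axis), with 1 point for each of the 8 genes and 1 library for each genotype. Abcb1a lies in the lower right, with 1.22 in the Pld6 line and -0.79 in the Dnmt3L line, and Caps2 in the upper left, with -0.19 and 0.33.

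In a fit over all genes, the quasi-likelihood test of edgeR, adjusted by Benjamini-Hochberg, called 0 of the 8 genes at 0.05 in Pld6 KO, Dnmt3L KO or both KOs against both controls, where 0 of 18657, 18657 and 17686 genes were called. These fits had 1 or 2 residual degrees of freedom, so they rest on the spread between a pair of unlike controls and, in the last, a pair of unlike KOs. Cdh19 had the smallest adjusted p of the 8 in that test, 0.318 for Pld6 KO, 0.349 for Dnmt3L KO and 0.227 in both KOs together. At an unadjusted p under 0.05, 2310043L19Rik and Cdh19 were higher in all 3 comparisons, where 0.547%, 1.09% and 0.724% of the genes tested were higher. With DESeq2 in place of edgeR, Cdh19 (adjusted p = 0.0110) and 2310043L19Rik (adjusted p = 0.0412) were called higher in both KOs against both controls, as were 0.191% of the genes tested, and DESeq2 called 0 of the 8 higher in Pld6 KO (0.0844% of genes) or Dnmt3L KO (0.0956%) alone. Since the list was chosen with these data known, the calls describe its members and are no independent evidence.

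The other 31 genes of the study's links moved in both directions. By the 2-fold rule Pld6 KO had 4 of the 31 higher and 3 lower (1.04% and 5.41% of all genes), and Dnmt3L KO had 4 higher and 2 lower (2.14% and 5.78%). Against the control of its own line alone, Pld6 KO had 6 higher and 3 lower (4.69% and 6.46% of all genes). Dnmt3L KO had 5 and 2 on that basis (3% and 8.22%). Against the control of the other line alone, the Pld6 KO counts were 8 and 6 (5.55% and 13.4% of all genes). The Dnmt3L KO counts were then 8 and 5 (12.1% and 8.75%). Relative to the mean of both controls, the 31 genes had a median log2 change of 0.44 (Pld6 KO) and 0.27 (Dnmt3L KO). Reg2, a secreted pancreatic lectin-type protein with an L1Md_T copy upstream, had 230 fragments in Pld6 KO (14.8 FPKM) and 89 in Dnmt3L KO (3.83 FPKM), with 0 in each control. Gc, the vitamin D-binding protein and a relative of Afm in the albumin family, also with an L1Md_T copy, had 253 fragments in Pld6 KO (4.96 FPKM) and 170 in Dnmt3L KO (2.23 FPKM), again with 0 in each control. Il23r, a cytokine receptor subunit, had 75 fragments in Pld6 KO (1.03 FPKM) and 0 in the other libraries, and E330017A01Rik had 40 in Dnmt3L KO (1.78 FPKM) and 0 in the others.

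Of the further calls among these 31, Nckap1l, a haematopoietic cytoskeletal regulator, was higher in Pld6 KO (log2 change 1.21) and Olfr1372-ps1 in Dnmt3L KO (1.27). Capn11, a calpain protease of the testis, was lower in Pld6 KO (-1.17) and Dnmt3L KO (-1.58), and Plac8l1 was lower in both (-3.42 in each), at 0 fragments in both KOs. Gm5934 was lower in Pld6 KO (-1.43). Over all 39 linked genes, the 22 with an L1 copy had a median log2 change of 0.65 for Pld6 KO and 0.29 for Dnmt3L KO, and the 8 with an IAP copy had -0.34 and 0.50. These medians were not tested against each other.

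**Figure D5:**
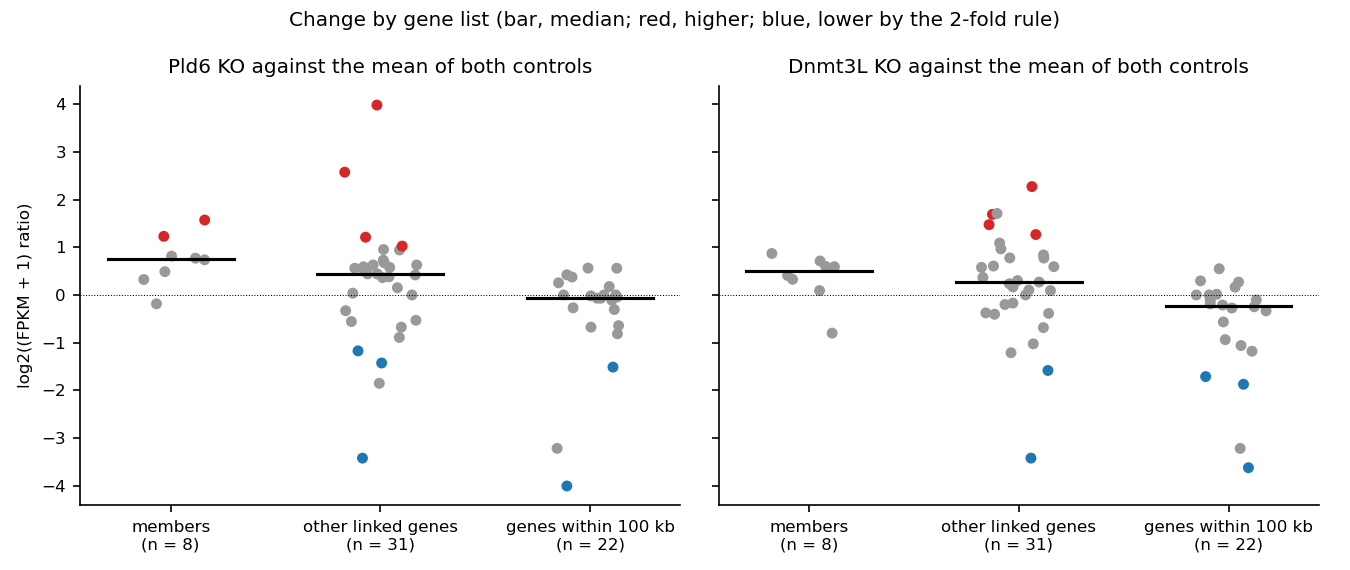
Log2 ratio of FPKM + 1 to the mean of both controls (y axis) for the 8 genes, the other 31 linked genes and the 22 genes within 100 kb of the 8, in Pld6 KO (left) and Dnmt3L KO (right). Points are genes (red, more than 2-fold above both controls, and blue, more than 2-fold below), spread sideways for sight only, and bars are medians, which are 0.75, 0.44 and -0.06 on the left and 0.50, 0.27 and -0.23 on the right.

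Calls among genes near the 8 depended on the rule. Of 22 genes within 100 kb, 0 were higher by the 2-fold rule in Pld6 KO (1.04% of all genes) or Dnmt3L KO (2.14%). By that rule 2 were lower in Pld6 KO (5.41% of all genes) and 3 in Dnmt3L KO (5.78%). Against the control of the other line alone, 6 were lower in Dnmt3L KO (8.75% of all genes) and 2 were higher in Pld6 KO (5.55%). Against the control of the own line alone, 0 were higher in Pld6 KO (4.69% of all genes) or Dnmt3L KO (3%). On that basis 3 were lower in Pld6 KO (6.46%) and 4 in Dnmt3L KO (8.22%). With no value added and a floor of 3 fragments, 2 were higher in each KO (beside 5.38% of all genes for Pld6 KO, and 6.25% of them for Dnmt3L KO). Under that floor 4 were lower in Pld6 KO (9.46% of all genes) and 6 in Dnmt3L KO (10.7%). The median log2 change was -0.06 and -0.23. Tecrl and Cdh19 have no gene of the table within 100 kb. Beside Afm lie Afp, the fetal albumin relative alpha-fetoprotein, 10042 bp to the left, and 5830473C10Rik, 7082 bp to the right. Afp was at 2.38 FPKM in the Dnmt3L heterozygote, 6.40 in Pld6 WT, 5.99 in Pld6 KO and 1.38 in Dnmt3L KO, so that it was lowest where Afm was highest. 5830473C10Rik had 1 fragment in Dnmt3L KO and 0 in the other libraries.

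Beside Alox5, the ubiquitin ligase gene March8 lies 531 bp away and was at 26.8 FPKM in the Dnmt3L heterozygote, 56.8 in Pld6 WT, 47.4 in Pld6 KO and 32.9 in Dnmt3L KO, an order unlike that of Alox5. On the other side the odorant receptor gene Olfr211 had 0 fragments in all libraries. Abcb1b, the second P-glycoprotein gene, 49572 bp from Abcb1a and similar to it in sequence, was at 0.323, 0.581, 1.14 and 0.351 FPKM in the same order of libraries, so it too was highest in Pld6 KO. Reads that fit both genes may have been split between them. The RefSeq span of Rundc3b overlaps that of Abcb1a, and Rundc3b was at 15.3, 32.2, 22.6 and 15.7 FPKM.

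Beside Slc15a2, Eaf2 lies 7726 bp and Ildr1 23357 bp away. Eaf2, an elongation-factor partner, had a log2 change of -0.82 in Pld6 KO and -1.06 in Dnmt3L KO, where Slc15a2 had 0.74 and 0.59, and Ildr1 had -0.04 and -0.21. Beside Caps2, Glipr1l2 was lower in both KOs (-1.51 and -1.87) and the potassium channel gene Kcnc2 had 0.42 and 0.30. The neighbours of 2310043L19Rik were the repressor gene Zbtb18, 190778 bp away, with 0.20 and 0.35, and 1700016C15Rik, 85194 bp away, which had 569 fragments in the Dnmt3L heterozygote, 13 in Pld6 WT and 0 in both KOs. The nearest genes on either side of Tecrl (Mir1187 and the ephrin receptor gene Epha5) lie 479057 and 699566 bp away, and those of Cdh19 (Cdh7 and Dsel) lie 742730 and 881100 bp away. Epha5 had 11, 9, 44 and 41 fragments in the Dnmt3L heterozygote, Pld6 WT, Pld6 KO and Dnmt3L KO, and Dsel had log2 changes of 0.55 and -0.42. Mir1187 and Cdh7 were at 0 in every library. The nearest gene to the left of Abcb1a, Slc25a40, 112252 bp away, had 0.18 in Pld6 KO and 0.17 in Dnmt3L KO.

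Of 25 relatives of the 8 genes in family or pathway, 1 was higher in each KO, Gc, which is 4% against 1.04% of all genes in Pld6 KO and 2.14% in Dnmt3L KO. Gc is also among the study's linked genes, which were chosen on raised RNA, so its call is no separate result about relatives. Capsl, a calcyphosine-like relative of Caps2, was the only lower call, in Pld6 KO (log2 change -1.26), which is 4% against 5.41% of all genes. Tecr, the broadly expressed enoyl-CoA reductase related to Tecrl, was at 103, 73.5, 119 and 111 FPKM in the Dnmt3L heterozygote, Pld6 WT, Pld6 KO and Dnmt3L KO. Among peptide carriers, Slc15a4 was at 10.8, 12.5, 16.5 and 12.6 FPKM and Slc15a1 at 2.76, 0.689, 0.389 and 1.53 FPKM in that order, so neither was higher in both KOs by the 2-fold rule. In the leukotriene pathway of Alox5, Alox5ap, its activating protein, was at 2.17, 0.678, 3.00 and 3.43 FPKM, Lta4h, which makes leukotriene B4, at 52.4, 45.2, 43.7 and 50.8 FPKM, and Ltc4s, which makes leukotriene C4, at 3.27, 0.828, 0 and 4.70 FPKM. Unlike Alox5, none of these 3 had its highest level in Pld6 KO. Of the other lipoxygenases at a mean of 1 FPKM or more, Alox12b was highest in Pld6 KO (4.53 FPKM), and Alox12 (5.33 FPKM) and Aloxe3 (4.69 FPKM) were highest in Dnmt3L KO.

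The genes whose profile over the 4 libraries was nearest to each of the 6 members with a mean of at least 0.5 FPKM were sought among 15721 genes, by the Euclidean distance of centred log2(FPKM + 0.1). Slc15a2 had the closest match, Adcy6, an adenylyl cyclase (distance 0.038), at 2.45, 1.63, 5.08 and 4.42 FPKM in the Dnmt3L heterozygote, Pld6 WT, Pld6 KO and Dnmt3L KO, and then Tmem132a (0.088). For Alox5 they were Gpr64 (0.057) and Itga3 (0.069), and for Caps2 Bivm (0.081) and 2310022A10Rik (0.085). For Abcb1a they were Susd5 (0.11) and Sema3b (0.16), for Tecrl 1810062G17Rik (0.21) and 4930426D05Rik (0.34), and for 2310043L19Rik Clca4 (0.50) and Ky (0.53). With 4 libraries such a match among so many genes is a description only.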

How the data were processed

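Strand-specific polyA(+) libraries were sequenced from 1 end in reads of 50 bp. The authors used TopHat2 for alignment and Cuffdiff for RefSeq gene levels (versions not given in the sources used here) on the mouse build mm10 by the submitters' processing notes. The deposited table gives, per gene and library, an estimated count of fragments before scaling (whole for 97.3% to 97.4% of values) and FPKM as scaled by the authors' tool. The tool marked 31 values of 28 genes as failed, none in a linked gene, and these were kept as listed.

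The Dnmt3L heterozygote is control replicate 1 and the Pld6 WT is control replicate 2, numbers that only name them. The 8 genes, the marker and family lists and the tests were chosen with earlier results of these data known. Changes are log2((FPKM in the KO + 1)/(mean FPKM of the controls + 1)), and a gene was called when FPKM + 1 lay more than 2-fold beyond both controls, with no filter. Folds of single genes are ratios of depth-scaled fragments with exact (Clopper-Pearson) 95% intervals, and a fold against 0 fragments uses a floor of 3 fragments per library. Intervals and floors cover counting error only, since reads carried no molecular identifiers. edgeR 4.0.16 (TMM, filterByExpr, quasi-likelihood, Benjamini-Hochberg at 0.05) was run in R 4.3.3 on the fragments rounded to whole numbers. DESeq2 1.42.0 was the alternative. The edgeR code was first tried on simulated data, with a pass rule set at far less spread than here (edgeR common dispersion 0.347). That trial checks the code and does not show what the fits can find in these data. Other steps used Python 3.11.15 with pandas 2.3.3, SciPy 1.17.1 and matplotlib 3.10.9.

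Positions (found for 99.3% of genes) and promoter windows are RefSeq's, on GRCm38.p6, and exons GENCODE M21's. Beside the 8 genes, the text names Pld6 and Dnmt3l, the other linked genes called in a KO, the nearest gene on either side of each member, relatives with a mean of at least 1 FPKM or a call, and the 2 nearest profiles per member, while Rundc3b, Abcb1b and the marker genes at 0 were named after their values were seen. Alternatives were the pseudocount, TMM scaling, a 3-fold rule, a filter at 0.5 FPKM, leaving out each library, and for the tests the size factors, filter, tool and a term for the line.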

Additional observations from a re-analysis of the deposited data

Results flagged for a closer look

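For 2 of the 8 genes the single KO library moved opposite ways in the 2 lines, among 17 linked genes looked at for this (the 8 and the other linked genes called in a KO). Caps2 had a log2 change of FPKM + 1 of -0.19 in Pld6 KO against Pld6 WT and 0.33 in Dnmt3L KO against the Dnmt3L heterozygote. Abcb1a had 1.22 in the Pld6 line and -0.79 in the Dnmt3L line. In the Pld6 line the counting interval of the Caps2 ratio includes 1. Some linked genes outside these 17 also had opposite signs in the 2 lines and others had the same sign. Opposite signs are thus not particular to the 8, and their share over all genes was not counted. Whether the 2 lines differ was not tested, as each genotype had 1 library.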

How the results depend on the processing

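With TMM scaling, no member changed the sign of its log2 change in either KO. The other alternatives for added value and controls could not reverse a sign, since in each KO every member lay above or below both controls. The numbers below give the 8 genes, the other linked genes and the genes within 100 kb. With 0.1 FPKM added, Pld6 KO had 6 of the 8 higher (median 1.58), 10 linked genes higher (median 0.62) and 4 neighbours lower, and Dnmt3L KO had 4 of the 8 higher and 1 lower (1.55), 8 linked genes higher (0.59) and 1 neighbour higher (-0.72). With nothing added and a floor of 3 fragments, Pld6 KO had 7 of the 8 higher (2.10), 12 linked genes higher (0.66), and 2 neighbours higher and 4 lower, and Dnmt3L KO had 4 of the 8 higher and 1 lower (1.77), 9 linked genes higher (0.83), and 2 neighbours higher and 6 lower (-0.90). With a 3-fold rule, Pld6 KO had 0 of the 8 higher, 2 linked genes higher and 1 lower, and 1 neighbour lower, and Dnmt3L KO had 2 linked genes higher and 1 lower. With only genes of mean FPKM at least 0.5, the median was 0.46 for the 8, 0.19 for linked genes and -0.999 for neighbours in Dnmt3L KO and -0.36 for neighbours in Pld6 KO. The causes of these differences were not tested. The shares of all genes higher and lower were 5.38% and 9.46% for Pld6 KO and 6.25% and 10.7% for Dnmt3L KO with the floor, and 0.209% and 3.56% and 0.375% and 3.66% with the 3-fold rule.

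Leaving out either control gave ranges of 2 to 3 of the 8 higher, 6 to 8 linked genes higher and 3 to 6 lower, and 0 to 2 neighbours higher in Pld6 KO. In Dnmt3L KO they were 0 to 1 of the 8 higher (median 0.44 to 0.49), 5 to 8 linked genes higher and 2 to 5 lower (median 0.28 to 0.39), and 4 to 6 neighbours lower. The member added against Pld6 WT alone is Tecrl.

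With either control left out, 4.69% to 5.55% of all genes were higher in Pld6 KO and 3% to 12.1% in Dnmt3L KO. edgeR called 0 of the 8 under every alternative run, whereas DESeq2 called 2 of the 8 with both KOs against both controls, and the cause was not tested. Over all genes DESeq2 called 15 higher and 957 lower (Pld6 KO), 17 and 919 (Dnmt3L KO), and 37 and 1220 (both). edgeR with no filter called 8 and 429, 6 and 423, and 2 and 375, and with the line as a block 131 and 1058. The block on line gave Cdh19 an adjusted p of 0.143, 2310043L19Rik 0.209 and Tecrl 0.215 in edgeR's quasi-likelihood test. This fit pairs each KO with the control of its line, and the labels give no replicate numbers for another pairing. Tests against the control of the same line alone were not run, since 1 library against 1 leaves no residual degrees of freedom. With 0 to 3 fragments in the controls, the levels of 2310043L19Rik, Afm and Cdh19 there rest on very few fragments, and other library differences, such as sorting, cannot be told apart from genotype.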
